A study of Homo sapiens with 4 samples.

Results

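ATF4 is a basic leucine zipper (bZIP) transcription factor that acts at the end of the integrated stress response, and the results describe ATF4 with 9 of its partners and targets. The 10 genes (ATF4, ATF5, DDIT3, CEBPB, TRIB3, CHAC1, ASNS, SESN2, VLDLR and PPP1R15A) were chosen by name, with synthetases and serine enzymes kept apart. The choice was made with earlier results of these data known. All 10 were found among the 23228 gene symbols of the count tables. Messenger RNA was measured by RNA sequencing in stem-like cells labelled as MDA-MB-231, an established human triple negative breast cancer line. Per the labels' protocols these cells had been sorted with the ALDEFLUOR assay for aldehyde dehydrogenase activity, grown in MammoCult medium, and given a lentiviral vector that stably expressed either a control shRNA (2 libraries) or an shRNA against KDM1A, the histone demethylase also called LSD1 (2 libraries). Both groups thus share the sort, the medium and a lentiviral shRNA vector. The labels name a control shRNA and a KDM1A shRNA with no rescue, and give no number of cultures or clones. Reads assigned to genes ranged from 23902900 to 26923678 per library.

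In the integrated stress response, the kinases EIF2AK1 (HRI), EIF2AK2 (PKR), EIF2AK3 (PERK) and EIF2AK4 (GCN2) each sense a different stress and phosphorylate the translation factor eIF2 alpha. General translation then falls, while messenger RNAs with suitable upstream open reading frames, among them those of ATF4, ATF5, DDIT3 and PPP1R15A, are translated more. ATF4 protein pairs with other bZIP proteins and binds C/EBP-ATF response elements in genes for amino acid supply, redox balance, feedback and cell death. Much of the control of ATF4 and ATF5 is therefore at the level of protein, whereas only RNA was measured here.

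To show what the element looks like in these genes, the motif TGATGNAAN was searched on both strands of promoter windows from RefSeq (build GRCh38.p14), which run from 250 bases before to 50 after an annotated start. All 10 genes had at least 1 window in that table, and 2 of them, ASNS and CHAC1, held a match. Of all 35116 windows there, 3.61% held one, and among 9646 tested genes with a window 2.85% did. The next 2 stretches of 120 bases, given 5′ to 3′ on the strand of the gene, lie upstream of the start, and capitals mark the match. In ASNS (chr7:97872412-97872531, minus strand) the match TGATGAAAC begins at position −68, counted from −1 at the base before the start. In CHAC1 (chr15:40953221-40953340, plus strand) the match TGATGCAAC lies on the opposite strand, so the capitals show its reverse complement, which begins at position −210.
ASNS: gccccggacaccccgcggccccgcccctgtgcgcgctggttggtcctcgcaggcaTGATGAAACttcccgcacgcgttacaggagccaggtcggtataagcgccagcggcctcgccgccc
CHAC1: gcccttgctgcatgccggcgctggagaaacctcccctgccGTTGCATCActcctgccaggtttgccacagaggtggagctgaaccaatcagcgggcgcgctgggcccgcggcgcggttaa

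A wider window was searched after the narrow one, from 1000 bases before to 1000 after the GENCODE 5′ end of each gene in GRCh37, the build of the counting. Here 6 of the 10 genes held a match, beside 17.6% of 11773 tested protein-coding genes. ATF4, ATF5, CEBPB and PPP1R15A held none, which says only that these letters are not in that window. The GENCODE 5′ end is the most upstream annotated one and can differ from the RefSeq start. For TRIB3 it lies at 343479 in GRCh37, while the RefSeq windows of TRIB3 begin at 381045, 381056 and 381093 in GRCh38.p14. The distance between these starts was not measured across the builds, so the TRIB3 match need not lie near a RefSeq start. No wider window around the RefSeq starts was searched. In each run of 27 bases printed next, the 9 in capitals are the match, read on the strand of the gene. Counted from that 5′ end as position 1, the matches begin at 552 in SESN2, 167 in VLDLR, 300 in CHAC1, 917 in DDIT3, 67 in ASNS and −235 in TRIB3. Those of ASNS and CHAC1 are the letters already printed, and further matches in SESN2 (position −297) and ASNS (−752) are not printed. The SESN2, VLDLR and CHAC1 sites share TGATGCAAC on the opposite strand, and the DDIT3 site is TGATGCAAT.
SESN2 (chr1:28586571-28586597): gggacccggGTTGCATCAactggcagc
VLDLR (chr9:2621339-2621365): gcaacgataGTTGCATCAgcgctaact
CHAC1 (chr15:41245450-41245476): tcccctgccGTTGCATCActcctgcca
DDIT3 (chr12:57914587-57914613): ttgccaaacATTGCATCAtccccgccc
ASNS (chr7:97501771-97501797): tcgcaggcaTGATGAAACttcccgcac
TRIB3 (chr20:343235-343261): gggcccctgTGATGGAAGaactgacag
A match is a description of letters and no measurement of binding, which was not analysed here.

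The targeted gene was checked first. KDM1A had 174 and 167 CPM in the control libraries and 23.4 and 25.2 CPM in the KDM1A shRNA libraries, where CPM are counts scaled to the library total and corrected by TMM normalization. This was a 7.02-fold fall (log2 fold change −2.81 with SE 0.05, edgeR adjusted p = 2.2e-14), in the direction the labels give. In the same libraries 3 genes of chromosome band 9p21 that MDA-MB-231 is known to lack went from a summed 23.2 and 25.4 CPM to 1.17 and 1.32 CPM. CDKN2A had 323 and 329 reads against 13 and 19, MTAP 271 and 256 against 15 and 14, and CDKN2B 27 and 31 against 0 and 1. These reads go against the cell line named in the labels for the controls, and the counts do not settle which cells gave this RNA. Every comparison that follows therefore sets the libraries labelled KDM1A shRNA against controls of uncertain makeup, and a difference in cells and the knockdown cannot be told apart. Of 10 markers of mesenchymal-like breast lines such as VIM, CD44 and AXL, all 10 were expressed, with summed levels of 6476 to 6555 CPM in controls and 7240 to 7285 CPM after knockdown. All 10 were called, 5 lower and 5 higher, where 28.8% of all genes tested were called lower and 27.3% higher. CAV1 (454 to 956 CPM) and PLAU (47.0 to 99.7 CPM) rose by more than 2-fold, and the largest fall was that of TGFBI (log2 fold change −0.44). Of 8 luminal markers, which summed to 604 and 615 against 738 and 771 CPM, the hormone receptor genes ESR1 (mean 0.316 CPM in controls) and PGR (0.0393 CPM) were near 0. Of the 6 tested, 5 were called higher, namely the keratins KRT18 (243 to 279 CPM) and KRT19 (284 to 369 CPM), ERBB2 (68.7 to 91.1 CPM), GATA3 (6.31 to 8.08 CPM) and CDH1 (6.34 to 8.16 CPM), the last pair not when scaled to housekeeping genes. FOXA1 was lower (1.07 to 0.343 CPM), and the median log2 fold change was 0.36. Of the immune and endothelial markers, all 5 tested were called lower, and their median log2 fold change was −0.89; CDH5 and VWF passed a 2-fold decrease. The lysosomal gene CD68 went from 175 to 123 CPM, the endothelial gene PECAM1 from 25.98 to 21.5 CPM and the monocyte gene CD14 from 5.67 to 3.05 CPM. The endothelial genes CDH5 (0.804 to 0.285 CPM) and VWF (0.716 to 0.140 CPM) were low throughout, and the leukocyte gene PTPRC and the T cell gene CD3E were near 0. The part of these marker changes in the results was not tested. Of the enzymes behind ALDEFLUOR activity, named here with their values known, ALDH1A1 had at most 1 read in any library, and ALDH1A3 averaged 10.4 CPM in controls and 4.66 CPM after knockdown.

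Most of the ATF4 genes were lower after KDM1A knockdown. In the fit across all genes 9 of the 10 fell and 1, ATF5, rose, with a median log2 fold change of −0.50, beside −0.89 for the 5 immune and endothelial markers. Because the 10 genes were chosen with earlier results of these data known, these values describe them and are no test of the set. The falls ranged from 1.23-fold for CEBPB to 3.59-fold for VLDLR. Over all 14012 genes tested, 28.8% were called lower and 27.3% higher at an edgeR adjusted p under 0.05, and the median was −0.0047. VLDLR and DDIT3 were lower by 2-fold or more, 2 of the 10, where 8.54% of all genes were. The CPM of the 2 groups did not overlap in any of the 10 genes, but the same held for 77.7% of all genes tested. All 10 had passed the filter on low counts. The 10 genes together summed to 728 and 754 CPM in the controls and to 529 and 547 CPM after knockdown.

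**Figure D1:**
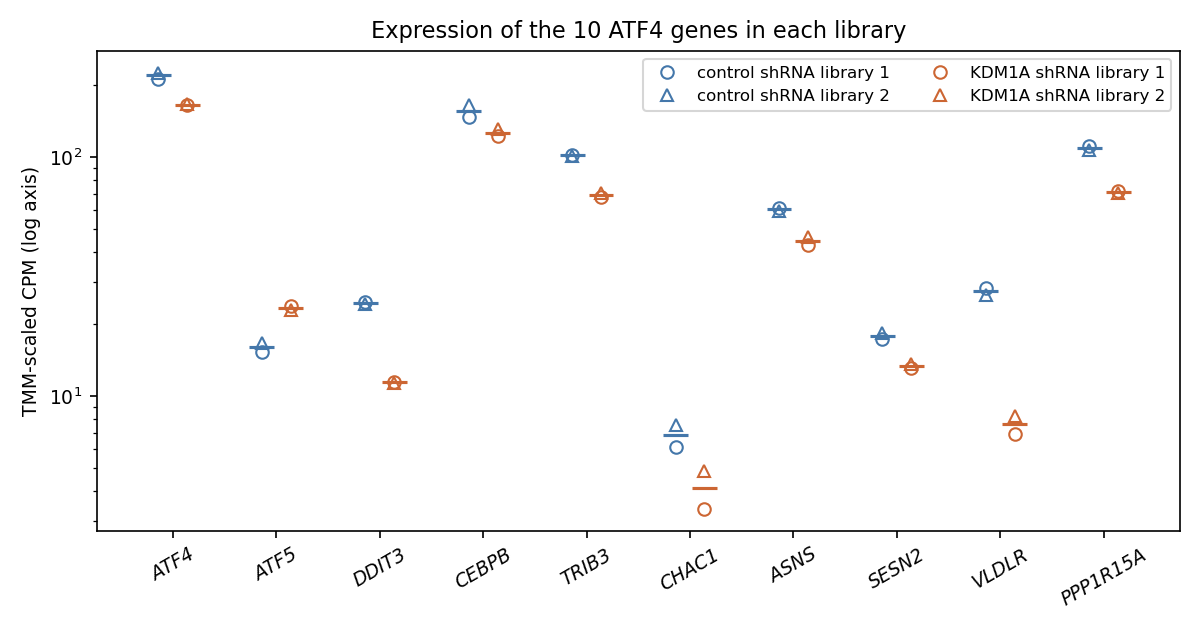
TMM-scaled CPM on a log axis for each of the 10 genes in each of the 4 libraries; horizontal lines are group means. In 9 genes both KDM1A shRNA libraries lie below both controls, and for ATF5 both lie above.

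**Figure D2:**
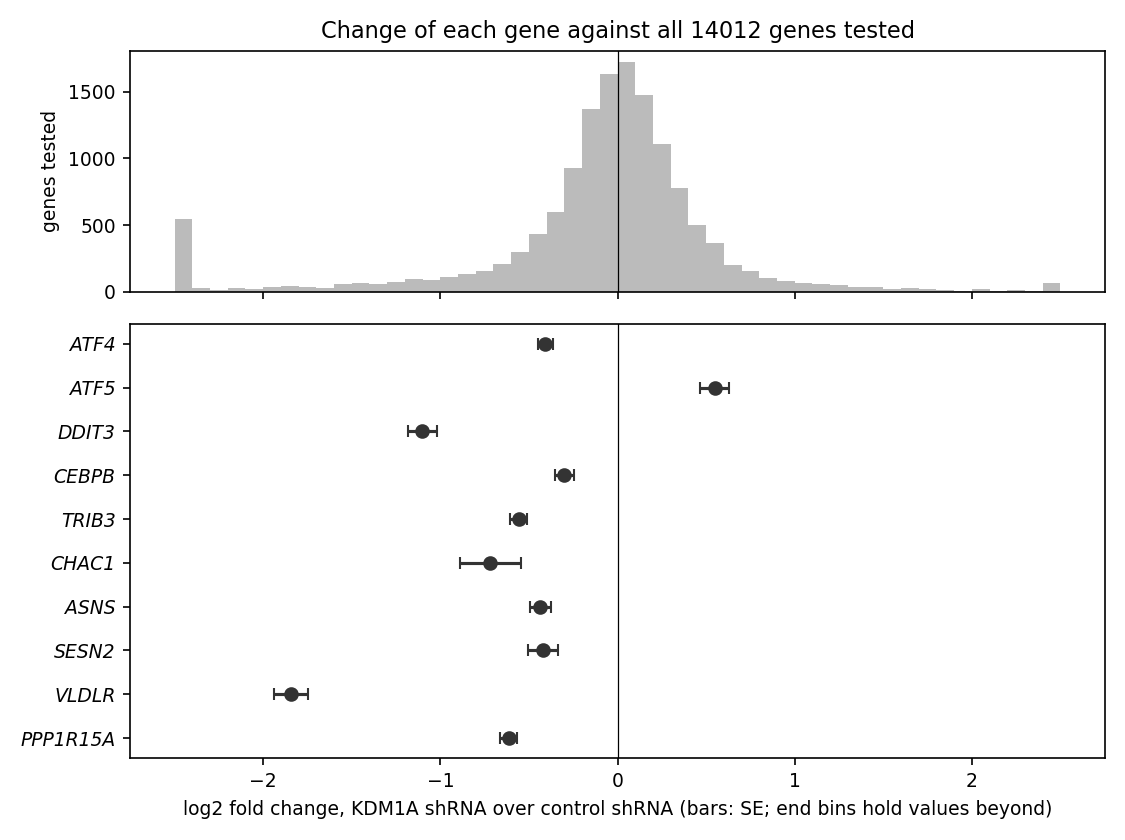
Upper panel: histogram of log2 fold changes (KDM1A shRNA over control shRNA) of all 14012 genes tested, with values beyond ±2.5 in the end bins. Lower panel: the 10 ATF4 genes with their SE; VLDLR at −1.84 and DDIT3 at −1.10 lie farthest left and ATF5 at 0.55 lies on the right.

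ATF4 itself (chromosome 22, 39915700 to 39918688, plus strand, GRCh37) was moderately lower. Control libraries 1 and 2 held 5717 and 5485 of its reads, and KDM1A shRNA libraries 1 and 2 held 3950 and 4298, or 213, 226, 165 and 167 CPM in that order. The controls lay above both knockdown libraries, whose CPM stood in a ratio of 1.01. Its level stood at 75.4% of the control level (log2 fold change −0.41 with SE 0.04, edgeR adjusted p = 1.0e-06). Of all genes tested, 18.0% had a more negative fold change. Processed pseudogenes of ATF4 are annotated and have no row in the tables; reads that align to more than 1 place were not counted, so the absolute level of ATF4 is uncertain.

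ATF5 encodes a bZIP factor closely related to ATF4 that promotes the mitochondrial stress response. Unlike the other 9 genes it was higher after knockdown. The controls had 410 and 405 reads (15.3 and 16.7 CPM) and the KDM1A shRNA libraries 572 and 590 (23.9 and 22.9 CPM), with no overlap. The rise was 1.46-fold (log2 fold change 0.55 with SE 0.08, edgeR adjusted p = 4.8e-05), and 8.21% of all genes had a larger one. ATF5 (chromosome 19, 50431959 to 50437192, plus strand) shares 565 bases, 19.5% of its annotated exons, with NUP62, a nuclear pore gene on the opposite strand. NUP62, named here after its values were seen, was higher too, with 102 ± 7.90 CPM in controls and 131 ± 0.39 CPM after knockdown (SD, n = 2 each; log2 fold change 0.36 with SE 0.05). Whether reads of NUP62 were counted for ATF5 was not tested, because no source used here gives the strand setting of the counting.

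DDIT3, also called CHOP, encodes a C/EBP-family protein that ATF4 induces and that promotes cell death under lasting stress. Its reads numbered 661 and 592 in the controls against 275 and 294 in the knockdown libraries. In CPM these were 24.7 and 24.4 against 11.5 and 11.4, so the libraries of a group lay close together and the groups far apart. DDIT3 fell 2.15-fold (log2 fold change −1.10 with SE 0.08, edgeR adjusted p = 4.3e-08). The gene (chromosome 12, 57910371 to 57915520, minus strand) shares 27.2% of its exon bases with the synthetase gene MARS, annotated as MARS1, on the opposite strand. MARS was the more abundant of the pair and was lower too, from 203 to 171 CPM (log2 fold change −0.25 with SE 0.04). Without the strand setting, reads of the shared bases cannot be assigned to either gene, and how far they bear on the change of DDIT3 was not tested.

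CEBPB encodes C/EBP beta, a bZIP partner of ATF4 and DDIT3 with roles in inflammation and differentiation. Its 4 libraries held 3944 and 4018 reads (controls) and 2940 and 3379 reads (knockdown). In CPM the controls stood at 147 and 166 and the knockdown libraries at 123 and 131, with no overlap and the smallest fold between groups among the members that fell. The gene (chromosome 20, 48807367 to 48809205, plus strand) was 1.23-fold lower (log2 fold change −0.30 with SE 0.05, edgeR adjusted p = 0.00027). With 1 library left out its log2 fold change ran from −0.38 to −0.22.

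Among the targets, the feedback genes come first. TRIB3 encodes a pseudokinase that ATF4 and CHOP induce and that restrains ATF4 and AKT. Its reads numbered 2745 and 2460 in controls against 1629 and 1821, or 102.5 and 101.4 against 68.0 and 70.6 CPM. The replicates of each group differed little beside the gap between groups. TRIB3 (chromosome 20, 343479 to 378203, plus strand) fell 1.47-fold (log2 fold change −0.56 with SE 0.05, edgeR adjusted p = 1.7e-07).

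PPP1R15A, also called GADD34, is the stress-induced subunit that directs protein phosphatase 1 to eIF2 alpha and so ends the response. The controls held 2979 and 2602 reads and the knockdown libraries 1722 and 1830. Scaled, these were 111 and 107 CPM against 71.9 and 70.9 CPM, again without overlap. PPP1R15A (chromosome 19, 49375469 to 49379316, plus strand) fell 1.53-fold (log2 fold change −0.61 with SE 0.05, edgeR adjusted p = 5.4e-08). Its constitutive counterpart PPP1R15B, with 135 CPM in controls and 128 CPM after knockdown, did not pass the test (log2 fold change −0.08 with SE 0.04, edgeR adjusted p = 0.13), but was called lower when scaled by upper quartile (−0.11) or to housekeeping genes (−0.18). The difference between the paralogs was not tested.

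Targets in amino acid, glutathione and nutrient control were lower as well. ASNS, asparagine synthetase, is the classic amino acid response gene whose response element is printed above. It had 61.4 and 59.8 CPM in controls and 43.1 and 46.5 CPM after knockdown, from 1645, 1450, 1032 and 1201 reads. Its level fell to 74.0% of control (chromosome 7, 97480989 to 97501854, minus strand; log2 fold change −0.43 with SE 0.06, edgeR adjusted p = 1.7e-05). Pseudogenes of ASNS are annotated, so its level is uncertain in the same way as that of ATF4. In addition, a long noncoding RNA gene of the same strand shares 49.3% of the annotated ASNS exon bases and has no count under its annotated name. Reads of the shared bases cannot be assigned to either gene. How far they bear on the level and the change of ASNS was not tested.

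SESN2, sestrin 2, signals leucine shortage to the kinase mTORC1. Its 467 and 444 control reads (17.4 and 18.3 CPM) compared with 313 and 351 after knockdown (13.1 and 13.6 CPM). The fall, to 74.7% of control (chromosome 1, 28586029 to 28609002, plus strand; log2 fold change −0.42 with SE 0.09, edgeR adjusted p = 0.00079), was close in size to those of ATF4 and ASNS.

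CHAC1 breaks down glutathione and is a sensitive readout of ATF4 activity. It was the least abundant of the 10 in CPM, with 164 and 184 reads in controls and 81 and 126 after knockdown. In CPM these were 6.12 and 7.59 against 3.38 and 4.88, and the 2 knockdown libraries differed by 1.44-fold, the widest replicate gap among the members. CHAC1 (chromosome 15, 41245160 to 41248710, plus strand) was 1.64-fold lower (log2 fold change −0.72 with SE 0.17, edgeR adjusted p = 0.0028). Its size depends on single libraries, since the log2 fold change was −1.01 without KDM1A shRNA library 2 and −0.48 without KDM1A shRNA library 1; the adjusted p stayed at or under 0.044 in every alternative.

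VLDLR encodes the very low density lipoprotein receptor, a lipid and reelin receptor that ATF4 induces under endoplasmic reticulum stress. It changed most of the 10. The controls had 758 and 646 reads (28.3 and 26.6 CPM), and the knockdown libraries 167 and 214 (6.97 and 8.29 CPM). VLDLR (chromosome 9, 2621182 to 2660056, plus strand) fell 3.59-fold, to 27.9% of control (log2 fold change −1.84 with SE 0.10, edgeR adjusted p = 1.0e-09), and 4.95% of all genes fell further. Its relative LRP8, another reelin receptor, did not pass (−0.02, SE 0.04, edgeR adjusted p = 0.74), but was called lower when scaled to housekeeping genes (−0.11). CDKN2A, on the same chromosome, stood at 5.06% of its control level, and a link between the changes of VLDLR and CDKN2A was not tested.

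To compare levels between genes, CPM were divided by the length of the canonical transcript in kilobases, as annotated in GENCODE. ATF4 was the most abundant on this scale at 155 ± 6.29 per kilobase in the controls (SD, n = 2), followed by CEBPB at 85.1 ± 7.06. PPP1R15A (46.5 ± 1.20) and TRIB3 (43.3 ± 0.33) came next. Then followed DDIT3 (27.2 ± 0.22) and ASNS (25.4 ± 0.49), and ATF5 (7.97 ± 0.49), SESN2 (5.16 ± 0.18), CHAC1 (4.51 ± 0.68) and VLDLR (2.98 ± 0.13) were lowest. SESN2 and CHAC1 differed by less than the SD of CHAC1 and cannot be ordered. After knockdown the order at the top stayed ATF4 (117 ± 0.82) and CEBPB (69.0 ± 3.15), whereas DDIT3 (12.7 ± 0.07) now stood below ASNS (18.8 ± 1.02) and just above ATF5 (11.7 ± 0.36).

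Set against ATF4 in the same library, some members kept their share and others did not. In CPM per CPM of ATF4, SESN2 stood at 0.0817 and 0.0810 in controls and 0.0792 and 0.0817 after knockdown, and ASNS 0.288 and 0.264 against 0.261 and 0.279, so both ranges overlapped. The ratio of DDIT3 went from 0.116 and 0.108 to 0.0696 and 0.0684, and that of VLDLR from 0.133 and 0.118 to 0.0423 and 0.0498. TRIB3 had 0.480 and 0.449 against 0.412 and 0.424, PPP1R15A 0.521 and 0.474 against 0.436 and 0.426, and CHAC1 overlapped with 0.0287 and 0.0336 against 0.0205 and 0.0293. For ATF5 the ratio went from 0.0717 and 0.0738 to 0.145 and 0.137. CEBPB had 0.690 and 0.733 in controls and 0.744 and 0.786 after knockdown. These ratios are a description of 4 libraries and were not tested.

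Upstream of ATF4, the eIF2 alpha kinases showed no common direction. EIF2AK3, which senses endoplasmic reticulum stress, was lower (34.7 to 28.7 CPM, log2 fold change −0.27 with SE 0.07, edgeR adjusted p = 0.0027). EIF2AK2, the double-stranded RNA sensor and an interferon-induced gene, was higher (48.6 to 65.4 CPM, 0.43, SE 0.06, edgeR adjusted p = 1.4e-05). The heme sensor EIF2AK1 (208 and 204 CPM) and the amino acid sensor EIF2AK4 (135 and 136 CPM) did not pass the test, with edgeR adjusted p-values of 0.61 and 0.77; scaled to housekeeping genes, EIF2AK1 was called lower (−0.12). Of 16 genes for eIF2, its exchange factor eIF2B, its phosphatases and upstream activators, 3 were lower and 7 higher, with a median of 0.09. Among all genes tested, 28.8% were called lower and 27.3% higher. Scaled to housekeeping genes the counts of this list were 5 lower and 2 higher with a median of −0.0071. Under that scaling 5427 of all 14012 genes were called lower and 2628 higher, with a median of −0.10. The phosphatase subunit PPP1CB (−0.23), the eIF2 subunit EIF2S2 (−0.19) and the mitochondrial protease OMA1 (−0.28) were lower, while PPP1CA (0.23), EIF2B1 (0.25) and the GCN2 activator GCN1L1 (0.13; not called when scaled to housekeeping genes) were higher.

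Other bZIP factors and cofactors were mostly lower where they passed. Of 29 tested, 14 fell, 1 rose and 14 were not called, with a median of −0.12, beside 28.8% lower and 27.3% higher of all genes. Scaled to housekeeping genes, 18 fell and 0 rose, where 5427 of all 14012 genes were called lower and 2628 higher. ATF3, a repressor that ATF4 induces, fell from 551 and 473 reads to 186 and 159 (log2 fold change −1.53 with SE 0.11, edgeR adjusted p = 2.8e-08). CEBPG, the partner with which ATF4 binds many amino acid genes, fell from 62.3 to 47.1 CPM (−0.40, SE 0.05), almost the same log2 fold change as ATF4. The small Maf gene MAFF (−0.94, SE 0.07) and CEBPA, from 1.69 to 0.140 CPM, also fell, and CREBZF rose (0.22, SE 0.05; not called when scaled to housekeeping genes).

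A list of 39 further ATF4 and CHOP targets, of which 37 were tested, held 24 lower and 5 higher genes with a median of −0.39. The shares over all genes tested were 28.8% lower and 27.3% higher. Scaled to housekeeping genes, the counts of the list were 29 lower and 4 higher. Under that scaling 5427 of all 14012 genes were called lower and 2628 higher. TXNIP, a thioredoxin-binding arrestin, fell from 1857 to 692 CPM (−1.42, SE 0.04) and the glutamine transporter SLC38A2 from 1574 to 1055 CPM (−0.58, SE 0.03). The transsulfuration enzyme CBS had 523 and 507 reads in controls and 13 and 15 after knockdown. This left 2.81% of the control level beside the 5.06% of CDKN2A, and a link between these changes was not tested. The 2 largest rises were those of amino acid transporters, SLC7A5 (0.59, SE 0.04) and the cystine transporter SLC7A11 (0.58, SE 0.06). The autophagy gene ATG5, named after its values were seen, followed (0.30, SE 0.06), and then the glutamine carrier SLC1A5 (0.22, SE 0.04).

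The synthetases and serine enzymes that ATF4 also controls went in both directions in either list. Of 12 aminoacyl-tRNA synthetases 6 were lower and 3 higher, with a median of −0.09 and every log2 fold change between −0.28 and 0.32. CARS (−0.28), YARS (−0.25) and MARS (−0.25) were lower, and TARS (0.32), IARS (0.19) and GARS (0.16) higher. Scaled to housekeeping genes, 8 were lower and 2 higher, and GARS was not called. Of 7 serine and one-carbon enzymes 4 were lower and 3 higher. PHGDH, the entry enzyme of serine synthesis, had 589 and 551 reads in controls against 16 and 38, and MTHFD2 (−0.68, SE 0.05) and SHMT2 (−0.31) fell, while SHMT1 (0.38), PSAT1 (0.23) and PSPH (0.19; not called when scaled to housekeeping genes) rose. The other arms of the unfolded protein response, run by XBP1 and ATF6, had 12 lower and 1 higher of 23 with a median of −0.15 and no change of 2-fold. Scaled to housekeeping genes, 16 were lower and 0 higher. The chaperone HSPA5 (−0.33, SE 0.03), MANF (−0.28) and PDIA4 (−0.20) fell, and DERL1 was higher (0.12, not called when scaled by upper quartile or to housekeeping genes). Over all genes tested, 28.8% were called lower and 27.3% higher in the main fit. Scaled to housekeeping genes, 5427 of all 14012 genes were called lower and 2628 higher, and the scaled counts above belong beside these. Differences between these lists were not tested.

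**Figure D3:**
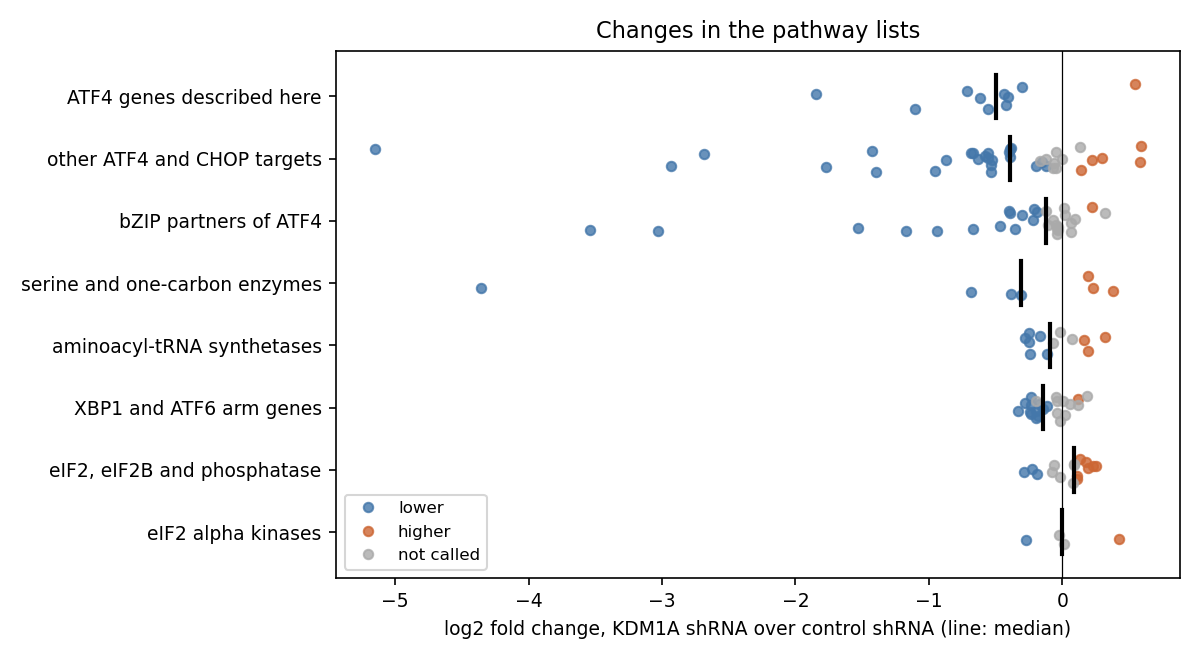
log2 fold changes (KDM1A shRNA over control shRNA) of each tested gene in the 10 ATF4 genes and 7 pathway lists; colours give the edgeR call and black lines the medians, from −0.50 for the ATF4 genes and −0.39 for other ATF4 and CHOP targets to 0.09 for the eIF2 genes.

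Paralogs of the members went in both directions. The tribbles genes TRIB2 (−0.37, SE 0.04) and TRIB1 (−0.26, SE 0.06) were lower like TRIB3. CHAC2, the constitutive relative of CHAC1, was higher, from 12.2 to 18.2 CPM (0.57, SE 0.09, edgeR adjusted p = 7.6e-05). SESN1 did not pass (0.08, SE 0.08, edgeR adjusted p = 0.47) and SESN3 was near the floor at 0.542 and 0.161 CPM. ATF1 was lower (−0.32, SE 0.06), and CEBPE was too low to test. In bulk RNA, fewer cells that express a gene and less RNA per cell cannot be told apart.

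Of the 10 genes, all 10 kept their direction and their call in each of 14 alternative analyses. Scaling to 11 housekeeping genes moved the median of all genes to −0.10 and the share of higher genes among all calls from 48.7% to 32.6%. ATF4 then stood at −0.50, DDIT3 at −1.20 and ATF5 at 0.45. In the main fit, 5 of these 11 housekeeping genes were themselves called higher and 2 lower, with a median of 0.07. They are thus no unchanged reference, and calls lost or gained under this scaling depend on that choice.

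**Figure D4:**
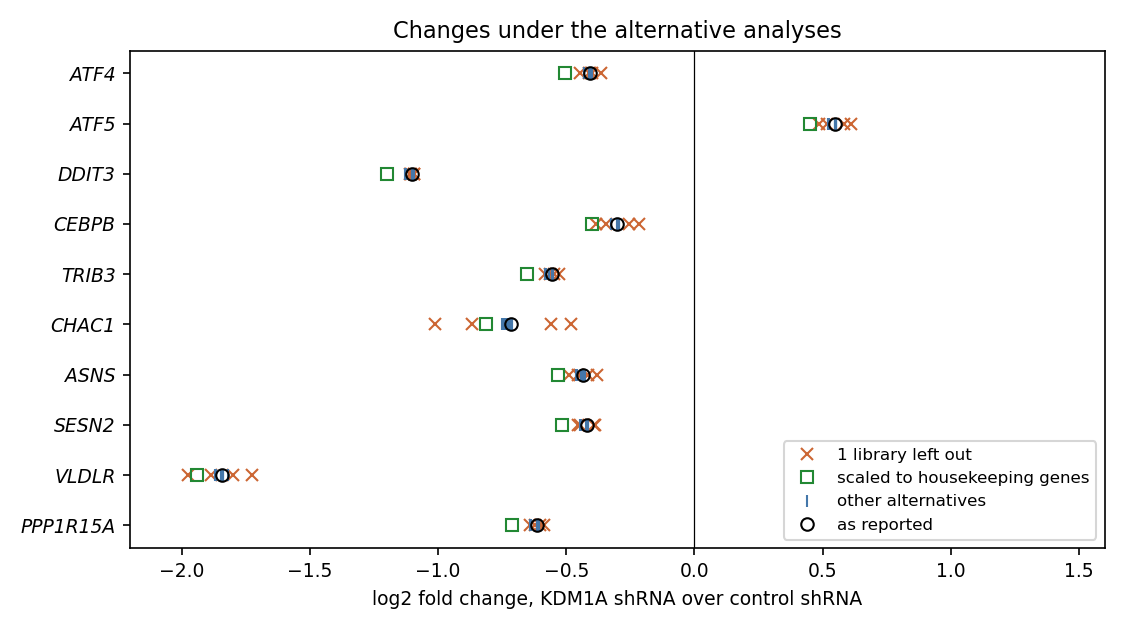
log2 fold change of each of the 10 genes as reported (circles) and under the 14 alternatives, with 1 library left out (crosses), scaling to housekeeping genes (squares) and all others (ticks). CHAC1 spreads most, from −1.01 to −0.48, and no gene crosses 0.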

How the data were processed

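RNA sequencing of 4 libraries, 2 per group, was analysed from the deposited read counts, which are whole, unnormalized numbers for each gene symbol. The submitters' processing notes name HTSeq, TopHat2 2.0.8b and CASAVA 1.8.2, with hg19; the annotation version and strand setting are not given in the sources used here. The 5 HTSeq summary lines were left out; alignments that were not unique made up 29.7% to 32.2% of each file's total. The test was that of edgeR 4.0.16, run in R 4.3.3 (TMM, filterByExpr with a minimum count of 10 and minimum total of 15, quasi-likelihood F-test of group, no other term), with Benjamini-Hochberg adjustment over 14012 genes and a threshold of 0.05. SE is the size of the log2 fold change over the square root of F. A gene at 0 reads could have had up to 3 counts, 0.111 to 0.126 CPM. On simulated counts of these libraries (14012 genes, 50 changed at each size) the test recovered 64% of 1.25-fold, 84% of 1.5-fold, 88% of 2-fold and 100% of 4-fold changes, with 2 false calls of 170. Far fewer genes were changed there than the 7861 called in the data, so these shares need not carry over.

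No label says that libraries were made from separate cultures, so p-values reflect only the spread between the libraries at hand, possibly technical; within a group the libraries differed by more than sampling noise (chi-square per degree of freedom 4.13 in controls, 1.63 after knockdown). The members and lists were chosen with earlier results of these data known, so lists are described by counts and medians, with no list test. Named genes are all members, the kinases, ATF3, CEBPG, PPP1R15B, the paralogs, and the 3 smallest p-values in each direction of each pathway list; a few are not reported here. Alternatives were other scalings (RLE, upper quartile, library size, 11 housekeeping genes), other filters, DESeq2 1.42.0, limma-voom 3.58.1, the replicate number as a block, thinning, and each library left out in turn. Gene positions and transcript lengths are from GENCODE for GRCh37, and promoter windows from RefSeq for GRCh38.p14, matched by symbol (10 of 10).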

Additional observations from a re-analysis of the deposited data

How the results depend on the processing

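For the 10 members and KDM1A, direction and side of the threshold were the same in all 14 alternatives, 140 of 140 values for the members. The members' counts stayed at 9 lower and 1 higher throughout, and the count of all genes called was within 1.5 times the reported 7861, from 5951 in DESeq2 to 8336 with every gene of at least 1 count. The labels share replicate numbers 1 and 2 but do not say what a number marks, and deviations of same-numbered libraries correlated with r of 0.015 over 14012 genes. With the replicate block 8142 genes were called. The search for TGATGNAAN depended on the window. Within 250 bases before to 50 after a RefSeq start, 2 members held a match. Within 1000 bases either side of the GENCODE 5′ end 6 did, a window chosen after seeing the data. The 2 libraries per group limit the precision most for CHAC1, with 81 to 184 reads per library.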
